A study of Mus musculus with 6 samples.

Results

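The 10 genes described here encode the enzymes that make serine from a glycolytic intermediate (Phgdh, Psat1 and Psph), pass its one-carbon unit to folate and on to formate or carbon dioxide (Shmt1, Shmt2, Mthfd2, Mthfd1l and Aldh1l2), and use serine to turn homocysteine into cysteine (Cbs and Cth). Their transcripts were measured by RNA-seq in MIN6, a line derived from a mouse insulinoma that carries many features of pancreatic β-cells, including glucose-regulated insulin release. The comparison was between the control group (n = 3) and the group of chronic epinephrine exposure (n = 3). According to the methods and the scheme of the study, the chronic scheme lasted 3 days at 100 nM, and its withdrawal phase took 2 days. Whether RNA was collected before or after withdrawal was not given in the sources used here. Both groups were the same line, an insulinoma and not primary islet cells, and the labels name no genetic difference between them. Each gene was found by its symbol, giving 10 of the 22298 genes in the deposited table, and all 10 were among the 12747 genes with enough counts to be tested. The genes were chosen by results of this same comparison, so their own fold changes are given as a description and not as a test.

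Serine synthesis branches from glycolysis at 3-phosphoglycerate. Phgdh oxidises it, Psat1 transfers an amino group to the product, and Psph removes the phosphate. In the one-carbon pathway serine hydroxymethyltransferase moves a carbon of serine onto tetrahydrofolate, leaving glycine. This happens in parallel in the cytosol (Shmt1, Mthfd1, Aldh1l1) and in mitochondria (Shmt2, Mthfd2, Mthfd1l, Aldh1l2), and formate links the compartments. The carbon is used for purines, thymidylate and methionine, and transsulfuration by Cbs and Cth leads to cysteine and glutathione. Several of these genes are known targets of ATF4, a transcription factor that is translated more under amino acid shortage and endoplasmic reticulum (ER) stress.

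Library totals ranged from 15017065 to 17457583 expected counts for controls and from 15256957 to 18127171 after epinephrine, and the 10 enzymes were each covered by 51 to 3291 counts per sample. In log2 CPM across genes, which are not independent replicates, control 1 stood apart, with Pearson's r of 0.974 to 0.979 against the other libraries, while controls 2 and 3 had r = 0.993 with each other. All 12 β-cell markers examined were tested, and 2 of them were called as lower after epinephrine, against 0.612% of all genes tested. These were Slc2a2 and Ins1, lower by 0.76 and 0.50 on the log2 scale (adjusted p = 0.00434 and 0.0152). Of the 12, 0 were called as higher. Ins2, the more abundant insulin transcript, had a log2 fold change of 0.01 (adjusted p = 0.974). The summed FPKM of the 12 markers was lowest in control 1 (75448) and highest in control 3 (106754). Of the other islet hormones Gcg rose by 1.02 on the log2 scale (adjusted p = 0.00199). Of 16 hepatocyte markers, 6 (Cps1, Fga, Fgg, Fabp1, Cyp3a11 and Mup3) had counts in controls 2 and 3 only. The summed FPKM of the hepatocyte list was 14.7, 50.7 and 117 in controls 1, 2 and 3 and 12.9 to 14.0 after epinephrine. None of the 3 hepatocyte markers that were tested was called, with adjusted p from 0.0803 (Ambp) to 0.838 (Tat). The others did not pass the filter on low counts, so the lack of calls says nothing of them. Among these Alb had 3, 593 and 1315 counts in controls 1, 2 and 3 and 5 to 8 after epinephrine. The values without control 1 and without control 3 are given beside the enzymes whose controls were spread. Exocrine pancreas markers summed to 0.31 to 1.06 FPKM, with Cpa1, Pnlip and Prss2 at 0 counts in every sample. Fibroblast markers summed to 0.34 to 5.20 FPKM, and 0 of the 3 tested were called. Cd68, a macrophage marker at 0.539 ± 0.186 CPM in the control group, rose by 2.39 on the log2 scale (SD, n = 3, adjusted p = 0.00906), and C1qa, which made up most of the summed level of the 6 leukocyte markers, was at 684 to 1083 counts in the control samples and 1146 to 1367 after epinephrine (log2 fold change 0.41, adjusted p = 0.188). The leukocyte list summed to 44.8 to 65.8 FPKM in the control samples and 71.4 to 74.9 after epinephrine, while Ptprc, Cd3e, Cd79a and Lyz2 were at 0 to 9 counts per sample. The part of these markers in the results was not tested. In bulk RNA, a change in the share of cells that express a gene and a change in RNA per cell cannot be told apart.

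All 3 genes of serine synthesis were at a higher level in every epinephrine sample than in any control sample. The same held for 14.3% of all genes tested. Values are read counts scaled to library size (CPM) after TMM normalization, which scales each library to the bulk of its genes. Phgdh (ENSMUSG00000053398, chromosome 3 of GRCm38 from 98313170 to 98339990), the entry enzyme, was at 8.09, 8.80 and 11.7 CPM in the control samples and at 27.2, 26.8 and 24.6 CPM after epinephrine. Its log2 fold change was 1.46 (SE 0.15). Control 3 was the highest of the controls and still lay below every epinephrine sample. Psph (ENSMUSG00000029446, chromosome 5 from 129765558 to 129787449), the last enzyme, had the same order of controls, at 11.0, 13.2 and 15.5 CPM, against 27.8, 28.0 and 27.7 CPM after epinephrine. Its log2 fold change was 1.07 (SE 0.13), and the epinephrine samples had an SD of 0.168 CPM (n = 3). Psat1 (ENSMUSG00000024640, chromosome 19 from 15904678 to 15947337), the aminotransferase between them, had the highest FPKM of the 3 in both groups and was at 113, 105 and 111 CPM in the control samples and 195, 173 and 191 CPM after epinephrine, a log2 fold change of 0.76 (SE 0.09). Without control 3 the log2 fold changes of Phgdh and Psph were 1.63 and 1.20, and without control 1 they were 1.36 and 0.96. Of the 50-base windows in Phgdh transcripts, 47.8% also occurred in other annotated transcripts, among them the pseudogene Phgdh-ps1, and none of the 23 genes that share them was among those counted in the table. How reads of those copies were assigned was not given in the sources used here, so the level of Phgdh is less certain than that of Psat1, which shared 0.739%.

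**Figure D1:**
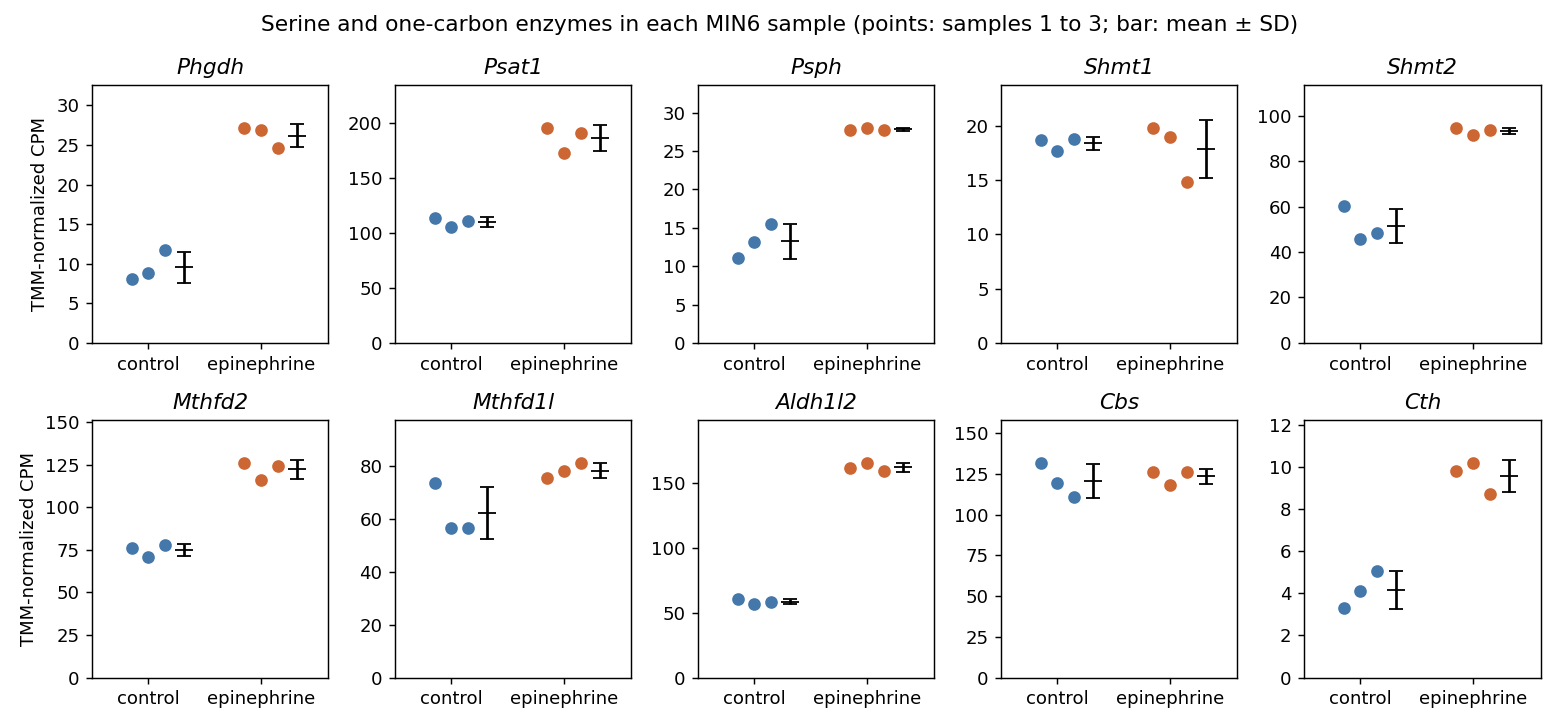
TMM-normalized CPM (linear axis from 0) of the 10 enzymes in each of the 3 control and 3 chronic epinephrine samples, with the mean and SD of each group beside the points. In 8 panels every epinephrine point lies above every control point, as for 14.3% of all genes tested. In Shmt1 and Cbs the groups overlap.

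Of the 4 mitochondrial folate enzymes Aldh1l2, Shmt2 and Mthfd2 were called as higher after epinephrine, and Mthfd1l was not called. The share called as higher among all genes tested was 2.02%. With 1 sample left out Shmt2 was called in 3 of 6 fits and Mthfd2 in 4. Aldh1l2 (ENSMUSG00000020256, chromosome 10 from 83487450 to 83534140), which oxidises the one-carbon unit to carbon dioxide with the formation of NADPH, was at 60.5, 56.8 and 58.7 CPM in the control samples and at 162, 166 and 159 CPM after epinephrine. With every sample in the fit its log2 fold change of 1.47 (SE 0.08) was the highest of the 10, just above Phgdh at 1.46. Its samples were tight in both groups. Phgdh was higher than Aldh1l2 without control 3 (1.63 against 1.47) and without epinephrine 3 (1.50 against 1.48). In the other fits with 1 sample left out Aldh1l2 was higher. Shmt2 (ENSMUSG00000025403, chromosome 10 from 127517123 to 127522444), which loads the carbon of serine onto mitochondrial folate, was at 60.1, 45.8 and 48.4 CPM against 94.6, 91.6 and 93.5 CPM, a log2 fold change of 0.86 (SE 0.11). Here control 1 was the highest control, and the log2 fold change was 0.99 without it and 0.82 without control 3. Mthfd2 (ENSMUSG00000005667, chromosome 6 from 83305691 to 83325908), the dehydrogenase and cyclohydrolase of the next steps, was at 76.2, 70.9 and 77.8 CPM against 126, 116 and 124 CPM, a log2 fold change of 0.70 (SE 0.08). Mthfd1l (ENSMUSG00000040675, chromosome 10 from 3973118 to 4167081) releases formate from mitochondria and differed least within the mitochondrial branch. It was at 73.4, 56.6 and 56.3 CPM in the control samples and 75.4, 77.9 and 81.1 CPM after epinephrine, so that control 1 lay just below the lowest epinephrine sample. The log2 fold change was 0.33 (SE 0.12), and it was 0.47 without control 1, 0.27 without control 3 and 0.08 against control 1 alone. In FPKM the groups overlapped narrowly, with the highest control at 20.65 and the lowest epinephrine sample at 20.54.

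The cytosolic counterparts had log2 fold changes between -0.20 and 0.10, and none was called with every sample in the fit. Their difference from the mitochondrial enzymes was not tested. Shmt1 (ENSMUSG00000020534, chromosome 11 from 60788104 to 60811718), the cytosolic hydroxymethyltransferase, was at 18.7, 17.7 and 18.8 CPM in the control samples and 19.8, 18.9 and 14.8 CPM after epinephrine. The groups overlapped, with a log2 fold change of -0.04 (SE 0.13) that was 0.07 without epinephrine 3, its lowest sample. Mthfd1, which covers the cytosolic steps in a single protein and is not among the 10, was at 105, 79.9 and 82.2 CPM in the control samples and 76.9, 76.8 and 78.4 CPM after epinephrine (log2 fold change -0.20, SE 0.11, adjusted p = 0.414). Its log2 fold change was -0.07 without control 1 and -0.46 against control 1 alone, a fit with 1 control whose calls are not used. Aldh1l1, the cytosolic partner of Aldh1l2, was at 0.826 ± 0.382 and 0.878 ± 0.173 CPM (SD, n = 3), on 9 to 20 counts per sample, with a log2 fold change of 0.10 (SE 0.39, adjusted p = 0.919). Mthfd2l, a further mitochondrial dehydrogenase, had 0 counts in every sample, which allows up to 0.165 to 0.200 CPM (3 counts per library, counting error only). In FPKM, which is scaled to transcript length, the ratio of Shmt2 to Shmt1 was 4.03, 3.24 and 3.24 in the control samples and 5.97, 6.06 and 7.92 after epinephrine. The ratio of Mthfd1l to Mthfd1 was 0.615, 0.570 and 0.549 against 0.859, 0.901 and 0.921. Both ratios were higher in every epinephrine sample, and they were not tested, since they contain genes chosen by this comparison.

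The transsulfuration enzymes had log2 fold changes of 0.03 (Cbs) and 1.20 (Cth), and the difference between them was not tested. Cbs (ENSMUSG00000024039, chromosome 17 from 31608894 to 31637238), which joins serine and homocysteine, was at 132, 119.7 and 111 CPM in the control samples and 126, 118 and 126 CPM after epinephrine. These ranges overlapped, with a log2 fold change of 0.03 (SE 0.09) that was 0.10 without control 1 and -0.03 without control 3. Cth (ENSMUSG00000028179, chromosome 3 from 157894248 to 157925077), which splits the product to release cysteine, was at 3.30, 4.11 and 5.07 CPM against 9.79, 10.2 and 8.73 CPM, a log2 fold change of 1.20 (SE 0.17). It was the least counted of the 10. Its controls, like those of Phgdh and Psph, followed the order of the hepatocyte markers, highest in control 3. Its log2 fold change was 1.36 without control 3 and 1.07 without control 1. Its call was lost without control 2 or without any one of the epinephrine samples (adjusted p = 0.0527 to 0.0848). The FPKM ratio of Cbs to Cth was 74.9, 54.9 and 39.4 in the control samples and 21.9, 22.6 and 26.2 after epinephrine. That ratio was not tested.

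By level per transcript length, Cbs led in both groups and Cth was last in both. The rank of Cbs depends on the scaling to length. In CPM, which is not scaled to length, Psat1 (186) and Aldh1l2 (162) were above Cbs (124) after epinephrine. In the control group mean FPKM ran from Cbs (125) through Psat1 (44.4), Mthfd2 (36.7), Shmt2 (22.8), Mthfd1l (17.2), Aldh1l2 (9.82), Psph (7.82), Shmt1 (6.50) and Phgdh (5.09) to Cth (2.31). Neighbours in that order overlapped between samples for Shmt2 and Mthfd1l and for Psph and Shmt1, and the other neighbours did not. After epinephrine Aldh1l2 (26.7 FPKM) stood above Mthfd1l (21.2), and Phgdh (13.7) stood above Shmt1 (6.19). In that group the ranges of neighbours overlapped for Shmt1 and Cth, at 5.14 to 6.90 and 4.77 to 5.53 FPKM. Within serine synthesis the levels drew closer, as Psat1 was at 10.6, 8.86 and 7.30 times the FPKM of Phgdh in the control samples and at 5.47, 4.89 and 5.90 times after epinephrine.

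**Figure D2:**
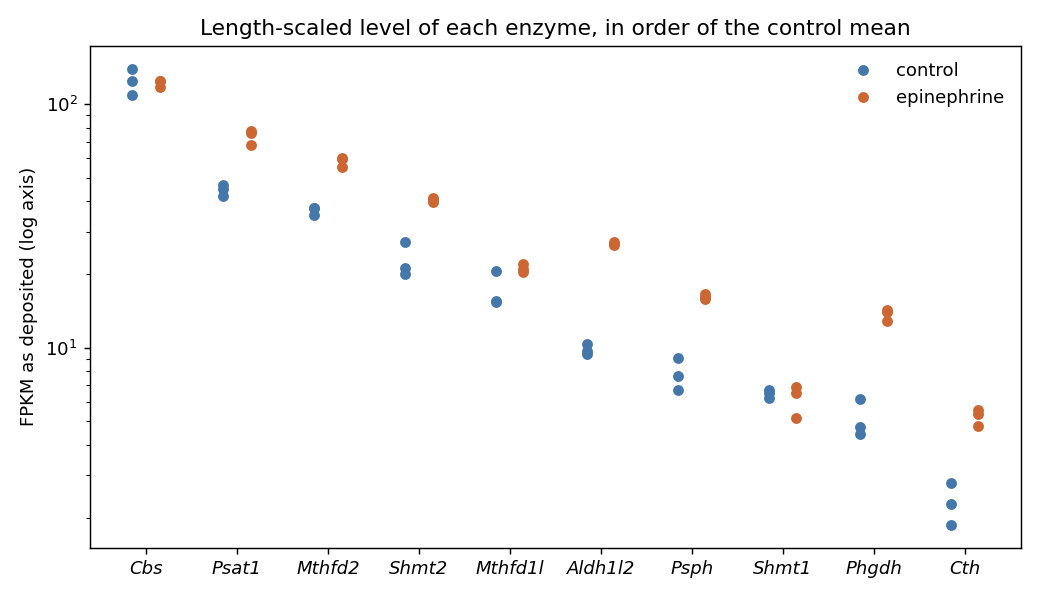
Deposited FPKM (log axis) of each enzyme in the 3 control and the 3 chronic epinephrine samples, ordered by the control mean from Cbs (125) to Cth (2.31). Aldh1l2 and Phgdh move past their neighbours after epinephrine, to 26.7 and 13.7 FPKM.

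In the edgeR quasi-likelihood fit over all genes, with Benjamini-Hochberg adjustment, 7 of the 10 enzymes had an adjusted p under 0.05, all of them higher after epinephrine (Phgdh, Psat1, Psph, Shmt2, Mthfd2, Aldh1l2 and Cth). Of all genes tested, 2.63% were called, 2.02% as higher and 0.612% as lower. The normalized CPM of the groups did not overlap for 8 enzymes, with epinephrine higher, as for 14.3% of all genes tested. These counts describe the choice of the genes, and nothing is read from them. Over the 10 enzymes the log2 fold change had a median of 0.81, against -0.0023 over all genes tested. Relative to the mean of the controls, the median over the enzymes was 0.03, -0.06 and 0.02 on the log2 scale in controls 1, 2 and 3 and 0.86, 0.75 and 0.83 in epinephrine 1, 2 and 3, so that each epinephrine sample lay above each control. With 1 sample left out the number of enzymes called was 2 without epinephrine 1 (Aldh1l2 and Phgdh), 4 without epinephrine 2, 4 without epinephrine 3, 6 without control 2, 7 without control 3 and 8 without control 1, which added Mthfd1l. Over the same fits the number of all genes called was 47 to 2798, and the median over the enzymes stayed between 0.75 and 0.87. Aldh1l2 and Phgdh were called in all 6 fits, with adjusted p up to 0.00609 and 0.0312. Psat1 was called in 5, Psph and Mthfd2 in 4 each, Shmt2 in 3, Cth in 2 and Mthfd1l in 1.

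**Figure D3:**
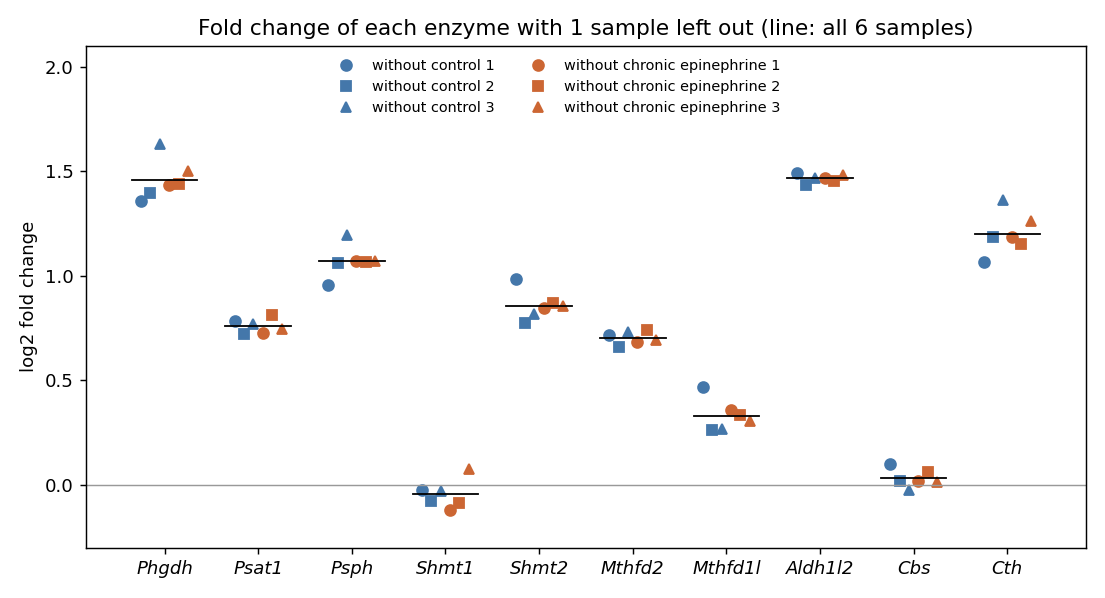
Log2 fold change of each enzyme (chronic epinephrine over control) with 1 sample left out, by symbol, against the value from all 6 samples (line). Aldh1l2 stays between 1.44 and 1.49, Phgdh moves from 1.36 to 1.63, and Shmt1 and Cbs lie on both sides of 0.

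Genes around the 10 enzymes were examined in 7 lists of 111 symbols, chosen with earlier results of these data known. Counts of calls and adjusted p-values in the lists are therefore a description and not an independent test. Over the lists 101 identifiers were tested. Of these, 2 passed the adjusted p of 0.05 in edgeR, against 2.63% of all genes tested, and 8 passed in DESeq2, against 5.07% of all genes it tested. The 2 were in the list of cystine supply and glutathione turnover. Slc7a11, the cystine carrier of the plasma membrane, rose from 1.55, 1.37 and 1.50 CPM to 8.72, 7.90 and 7.40 CPM, a log2 fold change of 2.44 (SE 0.16, adjusted p = 0.000519). Chac1, which breaks down glutathione, rose from 16.7, 16.5 and 19.3 CPM to 40.3, 38.2 and 39.8 CPM, a log2 fold change of 1.17 (SE 0.10, adjusted p = 0.00148). Neither gene had overlapping groups, and both were called in all 6 fits with a sample left out. In that list of 12 tested genes the median was 0.11, and 10 were higher, beside 6311 of the 12747 genes tested. There 3 had an unadjusted p under 0.05, against 17.1% of all genes tested. DESeq2 called 3, with Slc3a2 as the third (0.41, adjusted p = 0.0175). Gclc, the rate-limiting enzyme of glutathione synthesis, had a log2 fold change of 0.02 (SE 0.09, adjusted p = 0.938 in edgeR).

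None of the other 6 lists held a gene called by edgeR. The folate enzymes and carriers outside the 10 had 17 tested genes, 10 higher and 7 lower, with a median log2 fold change of 0.07. In that list 1 gene had an unadjusted p under 0.05, as did 17.1% of all genes tested (2179 of 12747), the share to set beside the counts at an unadjusted p in each list and pathway, and DESeq2 called 0. Thymidylate synthase (Tyms) and methionine synthase (Mtr) had log2 fold changes of 0.10 and 0.14 (adjusted p = 0.737 and 0.554). Against control 1 alone Tyms was at 0.41. Glycine and serine turnover held 12 tested identifiers with a median of 0.02. There 2 had an unadjusted p under 0.05 and DESeq2 called 2, both under the symbol Gcat, an enzyme of threonine breakdown that the table lists under 2 identifiers. Gldc, of the glycine cleavage system, had 2 to 20 counts per sample and was not tested. The methionine cycle and sulfur amino acid list had 18 tested genes, 9 higher and 9 lower, with a median of 0.02. In it 5 genes had an unadjusted p under 0.05 and DESeq2 called 1, Ahcyl1, as lower. Mat2a, which makes S-adenosylmethionine, had a log2 fold change of 0.08 (adjusted p = 0.786). Glycolysis around 3-phosphoglycerate had 20 tested identifiers with a median of 0.05, 5 at an unadjusted p under 0.05 and 1 called by DESeq2 (Aldoc, lower). Purine synthesis had 13 with a median of 0.05, 4 at an unadjusted p under 0.05 and 1 called by DESeq2 (Prps1, lower). Lipid synthesis from serine had 9 with a median of -0.01, 2 at an unadjusted p under 0.05 and 0 called by DESeq2.

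**Figure D4:**
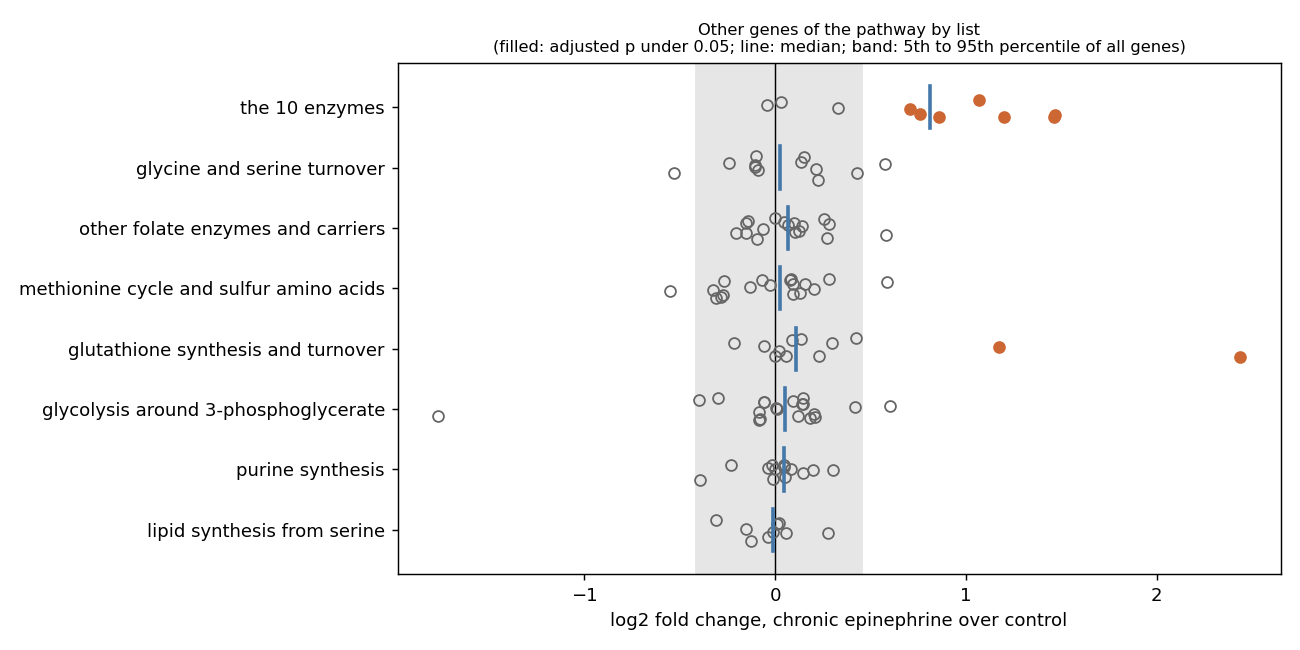
Log2 fold change of each tested gene in the 7 lists around the pathway and of the 10 enzymes, with the median of each row and the band between the 5th and the 95th percentile of all genes tested (-0.42 to 0.46). Outside the 10 enzymes only Slc7a11 (2.44) and Chac1 (1.17) are drawn as passing the adjusted p.

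Leaving out control 1 changed how many of these neighbouring genes were called. Without it, 26 of 103 tested identifiers passed, 15 higher and 11 lower, beside 2798 of all genes (21.6% of those tested). Hk1, the hexokinase of general glycolysis, then had a log2 fold change of 0.85, Slc3a2, the partner chain of Slc7a11, had 0.52, and Mtr had 0.25 (adjusted p = 0.0427). Prps1, which makes the ribose precursor of purines, had -0.42. The lower genes also included Bhmt and Mat1a, enzymes abundant in liver. Bhmt had 0, 17 and 53 counts in controls 1, 2 and 3 and 0 to 1 after epinephrine, in the order of the hepatocyte markers. With every sample in the edgeR fit Bhmt did not pass the filter on low counts. Here it passed only through controls 2 and 3, where it was high, so its lower value was fixed by the filter. The part of the hepatocyte markers in these calls was not tested. Among the 10 enzymes, leaving out control 1 changed the call of Mthfd1l alone.

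**Figure D5:**
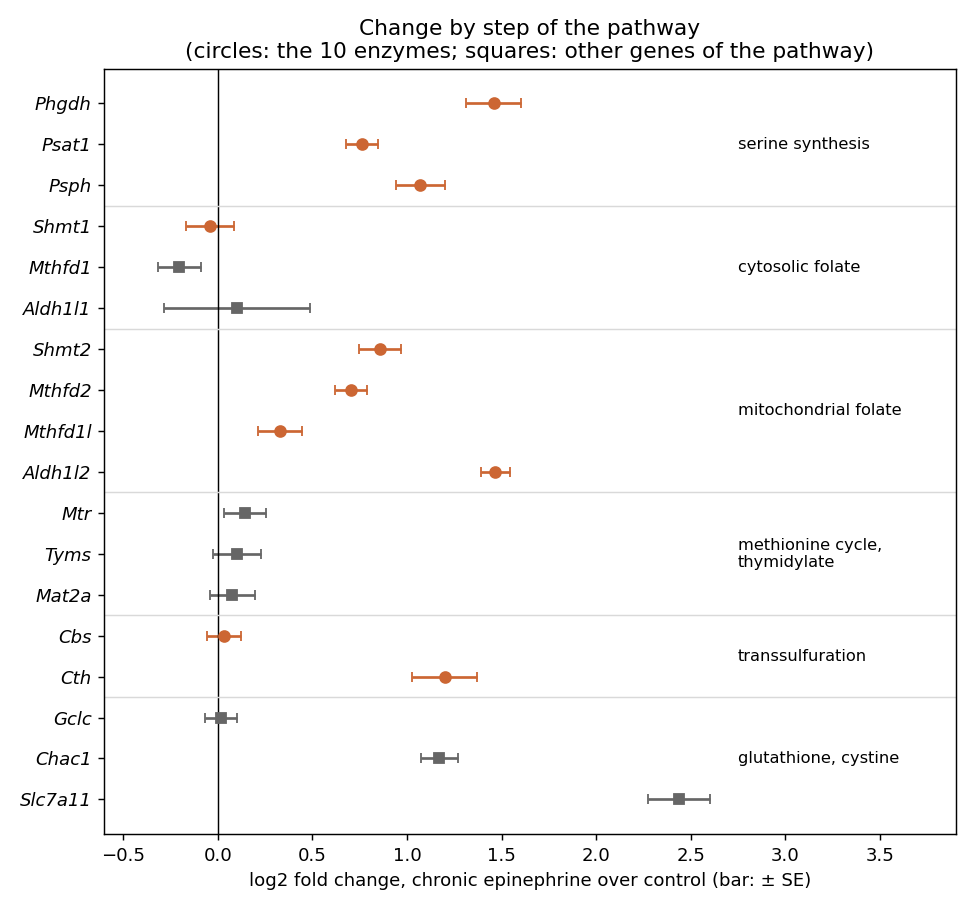
Log2 fold change with its SE for the 10 enzymes (circles) and 8 other genes (squares), in the order of the pathway. Serine synthesis and the mitochondrial folate enzymes lie to the right of 0, from 0.33 (Mthfd1l) to 1.47 (Aldh1l2), the cytosolic folate genes lie between -0.20 and 0.10, and Slc7a11 lies at 2.44.

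Atf4 was at 163, 198 and 208 CPM in the control samples and at 349, 340 and 349 CPM after epinephrine (log2 fold change 0.87, SE 0.10, adjusted p = 0.00581), and its adjusted p was 0.0577 without epinephrine 1 and 0.0585 without epinephrine 2. Promoter windows from 250 bases before to 50 bases after the start of each gene (RefSeq, GRCm38.p6) were searched on both strands for TGATGNAA, the core of the C/EBP-ATF response element that ATF4 is known to bind, for TGACGTCA, the cAMP response element, and for CACGTG, the E-box. Of the 10 enzymes 8 were matched, all but Aldh1l2 and Cth. The response element core was in the window of 0 of these 8 and in 2.68% of the windows of all tested genes matched by symbol. It was found in those of Chac1, Slc7a11 and Prps1 among 80 matched genes of the 7 lists. Prps1, whose window is not shown, was lower in every epinephrine sample than in any control (log2 fold change -0.39, adjusted p = 0.0529 in edgeR). Whether the core goes with the direction of change was not tested. The cAMP response element was in 0 of the 8 and 3.73% of tested genes, and the E-box in 1 of the 8 (Cbs) and 11.8%. A match is only a match of letters in this window, and its absence says nothing of binding elsewhere in the gene. Shown are the windows of the genes outside the 10 that rose and hold the core (Slc7a11, chr3:50443564-50443863, minus strand, and Chac1, chr2:119350992-119351291, plus strand), those of Phgdh (chr3:98339920-98340219, minus strand) and Shmt2 (chr10:127522395-127522694, minus strand), which were higher and hold none of the 3 motifs, and that of Cbs (chr17:31637156-31637455, minus strand), which overlapped between groups. Capitals mark matches on either strand, at -66 and -47 from the start site in Slc7a11, -193 in Chac1 and -229 in Cbs, and no match overlapped another motif.
Slc7a11: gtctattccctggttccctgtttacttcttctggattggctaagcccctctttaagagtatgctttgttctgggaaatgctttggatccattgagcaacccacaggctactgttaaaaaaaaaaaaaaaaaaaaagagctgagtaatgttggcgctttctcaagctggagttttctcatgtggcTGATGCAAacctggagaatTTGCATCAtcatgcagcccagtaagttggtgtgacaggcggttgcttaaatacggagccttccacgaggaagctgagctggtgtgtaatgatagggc
Chac1: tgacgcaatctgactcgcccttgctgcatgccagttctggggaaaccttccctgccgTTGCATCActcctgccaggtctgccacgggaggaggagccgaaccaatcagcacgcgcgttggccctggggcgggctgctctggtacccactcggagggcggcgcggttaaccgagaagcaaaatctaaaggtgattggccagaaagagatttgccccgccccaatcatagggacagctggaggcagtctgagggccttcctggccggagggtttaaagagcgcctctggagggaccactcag
Phgdh: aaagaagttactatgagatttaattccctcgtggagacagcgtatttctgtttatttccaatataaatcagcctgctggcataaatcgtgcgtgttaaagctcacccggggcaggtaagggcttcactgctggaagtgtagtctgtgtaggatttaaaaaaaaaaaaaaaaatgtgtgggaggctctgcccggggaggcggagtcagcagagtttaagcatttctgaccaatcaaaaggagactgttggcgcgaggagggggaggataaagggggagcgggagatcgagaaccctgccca
Shmt2: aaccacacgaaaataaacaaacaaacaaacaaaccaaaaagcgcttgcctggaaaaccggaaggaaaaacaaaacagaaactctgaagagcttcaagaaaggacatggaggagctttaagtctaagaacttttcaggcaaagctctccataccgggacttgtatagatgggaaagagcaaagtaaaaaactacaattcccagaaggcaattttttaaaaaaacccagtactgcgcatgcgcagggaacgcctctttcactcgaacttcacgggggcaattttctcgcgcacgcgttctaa
Cbs: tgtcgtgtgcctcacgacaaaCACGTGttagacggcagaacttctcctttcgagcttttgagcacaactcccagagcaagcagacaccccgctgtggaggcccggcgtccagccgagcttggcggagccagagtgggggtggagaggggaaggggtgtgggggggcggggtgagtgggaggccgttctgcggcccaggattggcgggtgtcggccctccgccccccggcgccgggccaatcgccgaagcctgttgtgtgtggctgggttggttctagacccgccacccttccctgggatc

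The KEGG annotation deposited with the counts assigns 7 of the 10 enzymes to glycine, serine and threonine metabolism, 5 to one carbon pool by folate, 4 to cysteine and methionine metabolism and 7 to biosynthesis of amino acids. These pathways were looked at after the values were known. Among their other genes, one carbon pool by folate had 12 tested, 6 of them higher, with a median log2 fold change of 0.02, 0 called by edgeR, 0 at an unadjusted p under 0.05 and 0 called by DESeq2. Glycine, serine and threonine metabolism had 24 tested, with a median of -0.10 and 5 at an unadjusted p under 0.05. There edgeR called Maob, a monoamine oxidase, as lower (log2 fold change -0.55, adjusted p = 0.0136), and DESeq2 called 2 genes as higher and 1 as lower. Biosynthesis of amino acids had 58 tested with a median of 0.01 and 12 at an unadjusted p under 0.05, against 17.1% of all genes tested. In it edgeR called 4, all higher with every sample in the fit, against 2.02% of all genes tested. DESeq2 called 5 as higher and 2 as lower. Over all genes it tested DESeq2 called 5.07%, the share to set beside its counts in each pathway. The 4 were Asns, which makes asparagine (0.69, adjusted p = 0.00508), Pycr1, of proline synthesis (1.18, adjusted p = 0.00199), Bcat1, a branched-chain aminotransferase (1.20, adjusted p = 0.00628), and Gpt2, the mitochondrial alanine aminotransferase (0.71, adjusted p = 0.00780). In cysteine and methionine metabolism 38 other genes were tested, with a median of 0.09 and 10 at an unadjusted p under 0.05. Bcat1 was the only edgeR call there, and DESeq2 called 2 as higher and 1 as lower. Carbon metabolism, which holds 5 of the 10 enzymes, had 96 other genes tested, with a median of 0.0034 and 17 at an unadjusted p under 0.05. In it edgeR called Gpt2 and Fbp1, a gluconeogenic phosphatase (1.55, adjusted p = 0.00647), as higher, against 2.02% of all genes tested, and DESeq2 called 3 as higher and 3 as lower. Without control 1, where 21.6% of all genes tested were called, edgeR called more genes in each of these pathways. It called 2 higher and 0 lower in one carbon pool by folate, and 3 and 2 in glycine, serine and threonine metabolism. The counts were 15 and 8 in biosynthesis of amino acids, 7 and 5 in cysteine and methionine metabolism, and 18 and 16 in carbon metabolism.

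The genes whose pattern over the 6 samples was most like the mean of the 10 enzymes were Mlec, Fam129a, Cyb5r1, Lonp1 and Sdf2l1, with Pearson's r of 0.999, 0.998, 0.998, 0.997 and 0.997 in log2 CPM. Over the 6 samples, which fall into 2 groups, 281 of the 12636 tested genes outside the enzymes and lists had r over 0.95. Since they were picked for following genes that were themselves chosen by this comparison, a difference between the groups was fixed by the choice, and their values are a description with no test. Lonp1, a protease of the mitochondrial matrix, was at 109.9 ± 3.18 CPM in the control group and 158 ± 3.44 CPM after epinephrine (SD, n = 3), with 0.53 as its log2 fold change. Sdf2l1, an ER protein induced by unfolded proteins, was at 41.6 ± 2.68 and 103 ± 0.902 CPM, a log2 fold change of 1.30. Fam129a had a log2 fold change of 1.80, Cyb5r1 one of 0.89 and Mlec, a lectin of the ER, one of 0.32. Against the mean of the other enzymes, r was 0.953 to 0.994 for the 7 called genes, 0.761 for Mthfd1l, 0.160 for Cbs and -0.17 for Shmt1.

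Exons of 4 enzymes overlap a gene on the other strand, and whether counting used strand was not given in the sources used here. Cct6a, opposite Psph, had a log2 fold change of 0.13 (adjusted p = 0.565), D10Wsu102e, opposite Aldh1l2, had 0.04 (adjusted p = 0.855) and Smcr8, opposite Shmt1, had -0.11 (adjusted p = 0.731). Their mean CPM in the control and epinephrine groups was 103 and 112 (Cct6a), 1747 and 1796 (D10Wsu102e) and 60.8 and 56.4 (Smcr8). Each was above the enzyme it overlaps in both groups. Whether any of their reads were counted for the enzymes was not tested. Ndufa4l2, opposite Shmt2, did not pass the filter on low counts. Shared 50-base windows made up 13.6% for Aldh1l2, 8.82% for Psph, 3.37% for Shmt1, 1.25% each for Shmt2 and Cbs, and 0% for Mthfd2, Mthfd1l and Cth.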

How the data were processed

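RNA of 3 control and 3 chronic epinephrine samples of MIN6 cells was sequenced, and groups were taken from the sample titles. The authors deposited an expected count per gene and sample, not normalized between samples, and an FPKM value, scaled by the authors to transcript length and library total. GRCm38 is named in the submitters' processing notes. The aligner, counter and annotation were not given in the sources used here. Of the expected counts 8.34% were not whole, and all were rounded. Genes kept by filterByExpr were normalized by TMM and compared in edgeR 4.0.16 (quasi-likelihood F test, R 4.3.3), with adjustment over all genes tested and a call at an adjusted p under 0.05. The SE is the size of the log2 fold change divided by the square root of F. The procedure was tested on simulated data, but the outcome is not given here and nothing is read from it. DESeq2 1.42.0, limma 3.58.1 on log2(FPKM + 1), 3 other scalings, a block for the replicate number, each sample left out, no filter, and a filter of 10 counts in all samples were alternatives. Gene positions and shared windows came from GENCODE M21. The members and lists were chosen with earlier results of these data known. Named genes were the 10 enzymes, list genes that passed, fixed partner enzymes with Atf4, the 5 genes of most similar pattern and cell type markers that differed. Some genes covered by these rules are not reported here. KEGG genes, and list genes named for DESeq2 or without control 1, were added after their values were seen. The study's methods call the samples of a group independent and describe biological replicates, and the labels do not name separate cultures. The p-values measure the spread between these samples.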

Additional observations from a re-analysis of the deposited data

How the results depend on the processing

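Of 150 values of the 10 enzymes under the alternatives, 133 kept direction and side of the threshold. With replicate number as a block, 7 enzymes and 2 neighbouring genes were called, as without it, and 178 of all genes. Same-numbered samples deviated from their group means with correlations of 0.0502, 0.0677 and -0.0488 across genes, so the numbers were not treated as pairs. DESeq2 called 7 enzymes, 8 neighbouring genes (Gcat counted under both identifiers) and 729 of all genes, and limma on log2(FPKM + 1) called 7 enzymes and 4 neighbouring genes, with 0.68 in place of 2.44 for Slc7a11, a scale that understates the change of low genes. With 1 sample left out, the calls were 2 to 8 enzymes, 2 to 26 neighbouring genes and 47 to 2798 of all genes, and the median over the enzymes was 0.75 to 0.87. An alternative chosen after seeing the data left out controls 2 and 3, with the lone control assumed to vary like the epinephrine samples. It called Mthfd1 as lower (-0.46) and Tyms (0.41) and Mat2a (0.35) as higher, none of them called with every sample in the fit. It gave 46 neighbouring genes, 6362 of all genes and a median of 0.69 over the enzymes, with 7 enzymes called. Log2 fold changes that turned sign were all of genes not called by the edgeR fit with every sample. Over the fits with 1 sample left out the ranges were -0.122 to 0.0745 for Shmt1, -0.0265 to 0.0991 for Cbs, -0.16 to 0.527 for Aldh1l1, -0.0354 to 0.181 for Tyms, -0.0473 to 0.154 for Mat2a and -0.0359 to 0.0568 for Gclc. Cbs was at -0.0193 with limma and -0.11 without controls 2 and 3, Mtr at -0.0568 without controls 2 and 3, and Gclc at -0.0079 with library size only and -0.0086 with limma. The cause of these changes was not tested. Depth limits genes with few counts, such as Aldh1l1 with 9 to 20 per sample, and no scaling moved the median of all genes by over 0.1.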
